A study of Mus musculus and Homo sapiens with 6 samples.

Results

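A set of 2951 open regions of mouse mammary epithelial cells had a peak in the ATAC-seq lists made from 50000, 75000 and 100000 cells and no peak in the list made from 25000 cells. They were found by merging the 4 deposited peak lists wherever peaks overlapped by at least 1 bp, which gave 55702 regions. The set is 5.30% of all these regions and 10.3% of the 28738 regions with a peak in all 3 larger lists. The regions were chosen by the presence and absence of peaks in these same lists, so their number and scores are a description and were not tested.

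All 4 libraries came from NMuMG, an epithelial line from mouse mammary gland, unmodified, at under 10 passages and at time 0 h, grown in serum-containing medium. They were made with 8 PCR cycles and differed by label only in the number of cells put in: 25000, 50000, 75000 or 100000. There was 1 library per cell number, so no value has a replicate error, no test between cell numbers was made, and cell number and library cannot be told apart. The series also holds 2 MDA-MB-231 samples, not analysed here. At 25000 cells, 19 of 24 epithelial junction and keratin genes had a peak within 1 kb of a start or end, against 0 of 10 fibroblast genes and 1 of 10 genes each of blood cells, endothelium and neurons. Such peaks were at 6 of 15 genes of epithelial regulators, 8 of 20 of luminal mammary cells, 11 of 20 of basal mammary cells and 11 of 20 of epithelial-mesenchymal transition. They were also at 19 of 20 housekeeping, 20 of 22 cell cycle and 18 of 20 chromatin regulator genes, so the high count is not particular to epithelial genes. Of all 21900 protein-coding genes, 10636 had a region with a peak in all 3 larger lists in that window. The same count for 25000-cell peaks is not given here.

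In ATAC-seq the Tn5 transposase cuts accessible DNA and attaches sequencing adapters to it, and a peak is a stretch where such cuts pile up. Gene starts are usually open in a cell that uses the gene, while enhancers, which act from a distance, tend to be weaker and particular to a cell type. A bulk library averages over its cells, so that weaker opening in every cell and opening in fewer cells cannot be told apart.

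The strongest of the 2951 regions at gene starts are shown first, because they are promoters that were listed at 3 cell numbers and not at the smallest. The sequences are the RefSeq promoters (GRCm38.p6, the assembly that mm10 names) of 6 of the highest-ranked protein-coding genes whose promoter overlapped such a region and was in the table used. Each runs 5′ to 3′ from 250 bases before the start to 50 after it. Capitals mark matches, on either strand, to any of 16 motifs searched.

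Kif1b (chr4:149307684-149307983, minus strand): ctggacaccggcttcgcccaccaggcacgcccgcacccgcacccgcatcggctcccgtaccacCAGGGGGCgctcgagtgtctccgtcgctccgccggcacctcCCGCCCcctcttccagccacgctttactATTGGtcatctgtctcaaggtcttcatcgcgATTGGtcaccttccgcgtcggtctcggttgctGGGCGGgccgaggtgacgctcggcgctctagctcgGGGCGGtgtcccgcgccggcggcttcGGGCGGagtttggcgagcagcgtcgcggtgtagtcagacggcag
Slc44a1 (chr4:53440163-53440462, plus strand): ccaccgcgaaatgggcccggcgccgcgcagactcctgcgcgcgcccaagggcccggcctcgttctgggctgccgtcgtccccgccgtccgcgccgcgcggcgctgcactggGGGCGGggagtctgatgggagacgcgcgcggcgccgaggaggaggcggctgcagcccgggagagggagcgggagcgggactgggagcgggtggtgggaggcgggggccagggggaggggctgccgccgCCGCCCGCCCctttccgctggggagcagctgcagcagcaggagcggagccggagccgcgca
Cenpi (chrX:134307834-134308133, plus strand): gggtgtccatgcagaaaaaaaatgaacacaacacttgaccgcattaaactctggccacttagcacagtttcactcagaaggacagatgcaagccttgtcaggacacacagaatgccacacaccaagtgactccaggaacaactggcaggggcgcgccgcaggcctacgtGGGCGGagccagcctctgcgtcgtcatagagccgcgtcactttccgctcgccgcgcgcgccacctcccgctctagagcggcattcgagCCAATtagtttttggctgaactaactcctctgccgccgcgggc
Impdh1 (chr6:29216315-29216614, minus strand): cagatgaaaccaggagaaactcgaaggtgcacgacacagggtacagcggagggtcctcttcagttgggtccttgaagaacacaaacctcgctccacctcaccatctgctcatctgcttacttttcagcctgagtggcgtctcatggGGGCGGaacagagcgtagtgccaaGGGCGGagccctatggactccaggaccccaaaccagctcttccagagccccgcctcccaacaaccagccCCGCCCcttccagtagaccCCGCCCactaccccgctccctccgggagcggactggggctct
Wdr60 (chr12:116262976-116263275, minus strand): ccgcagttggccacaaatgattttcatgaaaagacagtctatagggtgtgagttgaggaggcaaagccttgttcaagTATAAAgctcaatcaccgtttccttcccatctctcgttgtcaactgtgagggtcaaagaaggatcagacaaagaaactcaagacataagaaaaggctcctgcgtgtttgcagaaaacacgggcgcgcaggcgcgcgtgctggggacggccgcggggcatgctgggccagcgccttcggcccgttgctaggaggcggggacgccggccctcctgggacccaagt
Meis1 (chr11:19018920-19019219, minus strand): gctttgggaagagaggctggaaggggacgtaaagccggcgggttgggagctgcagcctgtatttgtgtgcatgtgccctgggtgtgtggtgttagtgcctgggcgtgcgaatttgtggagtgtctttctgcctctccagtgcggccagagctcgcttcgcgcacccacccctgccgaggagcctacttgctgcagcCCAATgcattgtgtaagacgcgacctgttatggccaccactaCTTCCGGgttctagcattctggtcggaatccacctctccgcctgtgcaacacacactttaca

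Kif1b encodes a kinesin that moves organelles along microtubules, and its promoter held 4 GC boxes (GGGCGG, a binding sequence of SP1), 2 CCAAT boxes and 1 CTCF core match (CAGGGGGC). Slc44a1 encodes a choline transporter, and its promoter had a G+C content of 79.7% with 3 GC boxes. The promoter of Cenpi, a centromere protein gene, held 1 GC box and 1 CCAAT box. Impdh1, which encodes an enzyme of guanine nucleotide synthesis, had 4 GC boxes, and Wdr60, a gene of the ciliary dynein, had 1 TATAAA match and none of the other motifs. The promoter of the homeobox gene Meis1 held 1 CCAAT box and 1 match to CCGGAAG, a sequence of ETS factors. A GC box was thus present in all of the 6 but Wdr60 and Meis1.

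These promoters belonged to a wider group of regions that scored highest within the set, with no listed peak at 25000 cells. The score is the authors' own whole number per peak, 8 or above in every list, and it ranks peaks within a list. A region was ranked by the lowest of its 3 scores. The highest was the start of Kif1b, at chr4:149307401-149308400, which scored 29, 29 and 45 in the 50000-, 75000- and 100000-cell lists. The nearest peak of the 25000-cell list was 25.1 kb away.

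Of the 10 regions with the highest rank, 6 lay inside genes more than 1 kb from a start, that in Slc6a9 by 1.24 kb. A region in Lpp, which encodes a protein of focal adhesions, at chr16:24765901-24766500, scored 33, 29 and 35. One in Plac1, a gene known from placenta, at chrX:53162451-53163150, scored 32, 28 and 33. One in Nfkb1, which encodes the p50 subunit of NF-kappa B, at chr3:135658451-135659100, scored 28, 25 and 25. Regions inside the glycine transporter gene Slc6a9 (26, 25 and 25), the kinesin gene Kif6 (33, 24 and 26) and Maml3 (24, 24 and 25), which encodes a Notch co-activator, completed these 6. The Plac1 and Slc6a9 regions lay 0.900 and 0.650 kb from a listed 25000-cell peak, whereas those in Lpp, Nfkb1 and Maml3 lay 32.2, 15.4 and 20.3 kb from one.

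At protein-coding genes, the start of Slc44a1 (chr4:53439901-53440700) scored 36, 31 and 26, that of Cenpi (chrX:134307701-134308400) 29, 24 and 28, and that of the lysine methyltransferase gene Setd6 (chr8:95715501-95716500) 27, 37 and 23. The scores were 23, 31 and 32 at Impdh1 (chr6:29215701-29216600) and 28, 28 and 23 at Wdr60 (chr12:116262451-116263250). An annotated end of Map4k4, a kinase gene upstream of JNK signalling, scored 33, 24 and 25. The start of Meis1 scored 24, 32 and 22, and Gtf2a2, which encodes a subunit of the general factor TFIIA, 25, 22 and 21. No single list was highest at all of these genes, as the plot of named regions shows. At Spry4, an inhibitor of receptor kinase signalling, the region at chr18:38601051-38601700 scored 31, 28 and 21, but a 25000-cell peak began or ended 0.100 kb away. That peak scored 24, so the end of Spry4 was not without a listed peak.

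**Figure D1:**
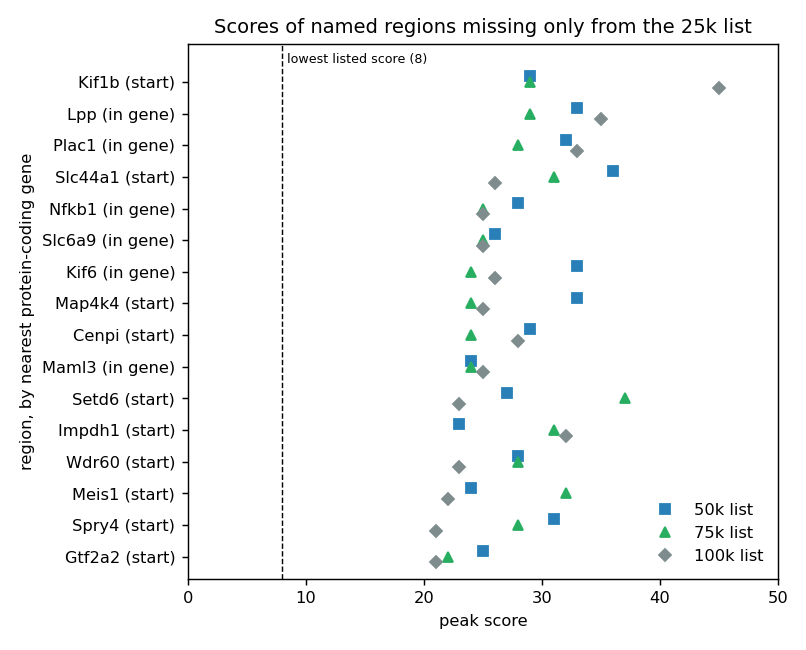
Peak scores (x axis) in the 50000-, 75000- and 100000-cell lists for the highest-ranked regions missing only from the 25000-cell list, 1 row per region, named by the nearest protein-coding gene (start: centre within 1 kb of a gene start, or of either end where no start was given; in gene: elsewhere in a gene). The dashed line marks the lowest score of any list, 8; the lowest value plotted is 21 and the highest is 45, at Kif1b.

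The widest regions of the set had lower scores than these. The widest, 1450 bp at chr1:156938651-156940100 over the start of Ralgps2, a Ral activator gene, scored 14, 14 and 10. A region of 1400 bp at an end of the kinase gene Cdk17 scored 21, 29 and 19. Another of 1400 bp, 1.28 kb from the ribosomal protein gene Rpl3, scored 9, 16 and 20.

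Scores in the set were lower than in regions found in all 4 lists. The median score was 12 in each of the 3 larger lists, with quartiles of 10 and 16 at 50000 cells, 9 and 15 at 75000, and 10 and 16 at 100000. For regions found in all 4 lists, the medians in the same lists were 25, 23 and 26. Only 36 of the 2951 (1.22%) scored 20 or above in all 3 lists, and 6 (0.203%) scored 25 or above. A score of 15 or above was reached in none of the lists by 1218 regions (41.3%), in 1 list by 939, in 2 by 551 and in all 3 by 243 (8.23%).

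The absence of a 25000-cell peak rests on the lowest listed score. Just inside the rule, 844 regions of the set (28.6%) had a lowest score of 8. Just outside it, 810 regions found in all 4 lists had a 25000-cell score of exactly 8, with median scores of 13, 13 and 14 in the larger lists. Signal below a score of 8 at 25000 cells would not be listed. Also outside, 4984 regions lacked a 25000-cell peak and had a peak in only 2 of the larger lists.

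The 25000-cell list lacked more such regions than any other list. Regions missing only from the 50000-cell list numbered 1363 (2.45% of all regions and 5.02% of the 27150 with a peak in the other 3 lists), those missing only from the 75000-cell list 2034 (3.65%, and 7.31% of 27821) and those missing only from the 100000-cell list 1068 (1.92%, and 3.98% of 26855). The order is that of list length in reverse, the 25000-, 50000-, 75000- and 100000-cell lists holding 38878, 43832, 41509 and 45530 peaks. With the 38878 highest-scoring peaks of each list, the numbers became 2117, 1488, 1796 and 1362, still highest for 25000 cells. The lists hold no read counts, so sequencing depth is unknown and its part was not tested.

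Loss from the 25000-cell list fell steeply with score. Among regions whose lowest score in the 3 larger lists was 8 or 9, 34.2% (95% Clopper-Pearson interval 32.7 to 35.6) had no 25000-cell peak. The share was 21.8% (20.5 to 23.3) at 10 or 11, 12.7% (11.7 to 13.8) at 12 to 14, 4.65% (4.05 to 5.31) at 15 to 19 and 0.965% (0.652 to 1.37) at 20 to 24. From 25 to 49 it was 6 of 6943 regions, and at 50 and above 0 of 2671. At a lowest score of 8 or 9 in the other 3 lists, 18.1% were missing from the 50000-cell list, 26.8% from the 75000-cell list and 15.5% from the 100000-cell list. All intervals cover counting error only, and the lists that define the score differ between these 4 shares.

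**Figure D2:**
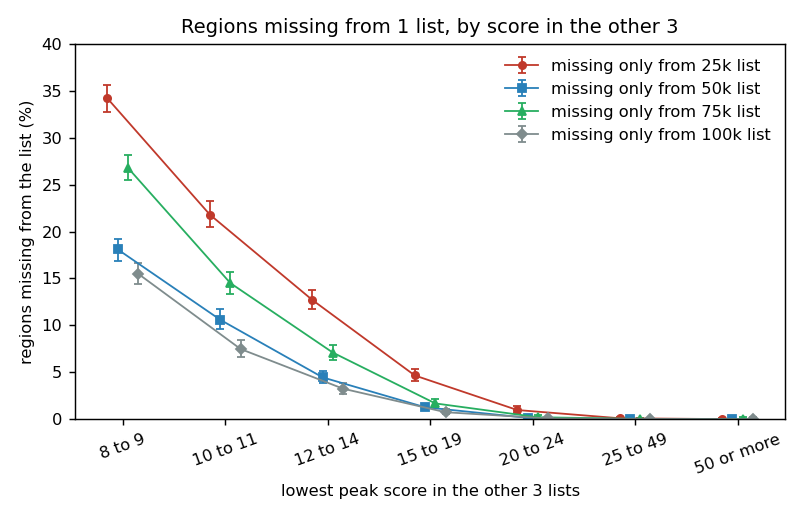
Share of regions missing from 1 list (y axis, %) by the lowest score in the other 3 lists (x axis, bins of score), 1 line per missing list, bars showing exact Clopper-Pearson 95% intervals. The line of the 25000-cell list starts at 34.2% and lies above the other 3 up to the bin 20 to 24, where it is 0.965%.

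Scores were compared between the sets only within a list that both have. In the 100000-cell list, 35.4% (33.7 to 37.2) of the regions missing at 25000 cells scored 15 or above, compared with 31.1% (28.7 to 33.6) of those missing at 50000 and 30.2% (28.2 to 32.2) of those missing at 75000. In the 50000-cell list the share was 32.4% (30.7 to 34.2), against 26.5% (24.5 to 28.4) for regions missing at 75000 and 26.6% (24 to 29.4) at 100000. In the 75000-cell list it was 26.0% (24.4 to 27.6), against 21.9% (19.8 to 24.2) for regions missing at 50000 and 20.1% (17.8 to 22.7) at 100000. The share was thus higher in the set in each of the 3 lists, by margins that in some pairs barely cleared the counting intervals.

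**Figure D3:**
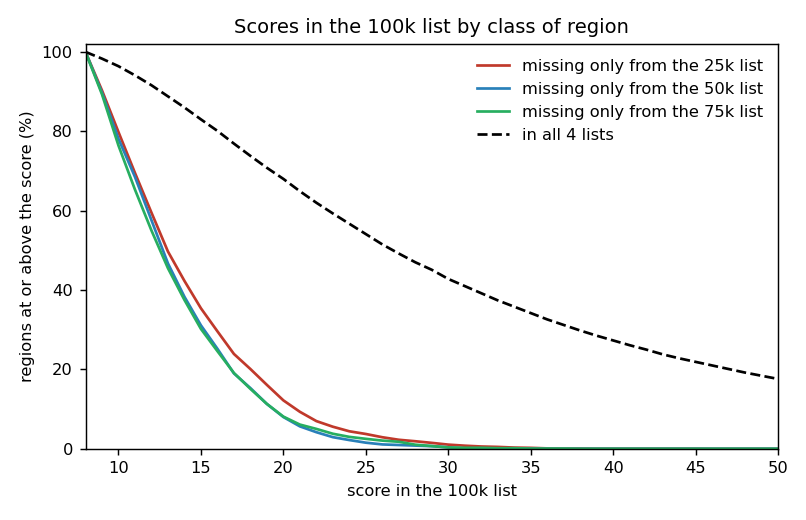
Share of regions (y axis, %) at or above each score in the 100000-cell list (x axis), for regions missing only at 25000, 50000 or 75000 cells and, dashed, for regions in all 4 lists. The line of the 25000-cell set reaches 35.4% at a score of 15, above the 31.1% and 30.2% of the other missing sets and below the 83.0% of regions in all 4 lists.

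At equal scores, median widths were the same in some score ranges and larger in the set in others. The median merged width of the set was 600 bp (quartiles 550 and 650), against 550 bp (550 and 600) in each of the other 3 missing sets and 750 bp in regions of all 4 lists. Regions wider than 750 bp made up 10.0% (8.97 to 11.2) of the set, 5.65%, 5.11% and 3.93% of the sets missing at 50000, 75000 and 100000 cells, and 40.6% of regions in all 4 lists. At a score of 8 to 11 in the 100000-cell list the median width was 550 bp both in the set and in the sets missing at 50000 and 75000 cells. At 12 to 14 it was 600 bp in the set and 550 bp in both of the others, and at 15 to 19 it was 600 bp in each. At 20 to 24 it was 650 bp in the set and 600 bp in both of the others. A merged region is as wide as its peaks in all lists together, and the single peaks had a median width of 500 bp in each list for all 4 missing sets.

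Gene starts made up a larger part of the set than of the other missing sets. Of the 2951 regions, 582 (19.7%, 18.3 to 21.2) were centred no more than 1 kb from a gene start, 1347 (45.6%) lay elsewhere in a gene and 1022 (34.6%) lay between genes. Both annotated ends stood in for a gene with no given start, so some of the 582 can lie at the far end of a gene. With given starts alone the share of the set was 14.1%, and the other sets were not placed that way. The share at starts was 15.4% (13.5 to 17.4) for regions missing at 50000 cells, 14.8% (13.3 to 16.5) at 75000, 13.0% (11.1 to 15.2) at 100000 and 39.2% (38.6 to 39.8) for regions in all 4 lists. For protein-coding genes alone it was 15.0% in the set against 12.1%, 10.9% and 9.64%, and for long non-coding RNA genes 5.05% against 3.45%, 4.03% and 2.62%. With lists of equal length, the share at starts was 21.1% (19.3 to 22.9) in the set, and 18.1% (16.2 to 20.2), 15.3% (13.7 to 17.1) and 14.2% (12.4 to 16.1) in the others, and the interval at 50000 cells then overlapped that of the set.

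Position was also compared at equal scores. At a score of 8 or 9 in the 100000-cell list, 13.4% (10.8 to 16.5) of the set lay at starts, against 13.1% of regions missing at 50000 cells and 13.9% of those missing at 75000. At a score of 15 to 19, 23.4% (20.3 to 26.7) of the set lay at starts, against 18.1% (14 to 22.8) and 15.4% (12.2 to 19). At the lowest scores the 3 shares lay within each other's intervals, and at 15 to 19 that of the set lay above the 75000-cell share beyond them. For regions of all 4 lists the shares were 17.9% (15.5 to 20.5) at 8 or 9 and 26.9% (25.5 to 28.4) at 15 to 19. Both were above those of the set, with intervals that overlapped. At 10 or 11 the share was 17.4% for regions of all 4 lists and 17.7% in the set.

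The sets can also be compared within a common pool, since regions missing at 25000 and at 50000 cells all have peaks in the 75000- and 100000-cell lists. The sets hold different regions, so the comparison is not paired. At gene starts 582 regions were missing only at 25000 cells and 210 only at 50000, a ratio of 2.77, against 1347 and 685 elsewhere in genes (1.97) and 1022 and 468 between genes (2.18). Against 75000 cells the ratios were 1.93 at starts, 1.32 in genes and 1.44 between genes, and against 100000 cells 4.19, 2.49 and 2.64. The ratio was highest at starts in all 3 comparisons, which share the 25000-cell list and are not independent. The 25000-cell share of both sets was 73.5% (70.3 to 76.5) at starts, 66.3% (64.2 to 68.3) in genes and 68.6% (66.2 to 70.9) between genes for the comparison with 50000 cells, so the interval at starts overlapped that between genes. In the comparisons with 75000 and 100000 cells, the interval at starts lay above those of both other positions. With lists of equal length the ratios at starts were 1.65, 1.62 and 2.31, against 1.34, 1.05 and 1.36 in genes and 1.42, 1.17 and 1.53 between genes. The shares for the comparison with 50000 cells were then 62.3% (58.6 to 65.9) at starts, 57.2% (54.8 to 59.6) in genes and 58.7% (55.9 to 61.5) between genes, with intervals that overlapped. For 75000 cells they were 61.9% (58.2 to 65.4) at starts, 51.3% in genes and 53.9% (51.1 to 56.6) between genes. For 100000 cells they were 69.8% (66.1 to 73.3), 57.7% (55.3 to 60.1) and 60.5% (57.6 to 63.3). In these comparisons with 75000 and 100000 cells, the interval at starts again lay above both others.

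Among low-scoring regions, starts were missing at 25000 cells somewhat less often than other positions. Among regions with a lowest score of 8 to 14 in the other 3 lists, those without a 25000-cell peak were 20.1% (18.6 to 21.7) at starts, 23.6% (22.4 to 24.8) in genes and 25.4% (24 to 26.8) between genes. The corresponding shares were 7.09%, 12.9% and 12.6% at 50000 cells, 10.4%, 18.7% and 18.3% at 75000, and 4.71%, 10.5% and 10.6% at 100000. The gap between starts and the other positions was thus narrower, as a ratio, for the 25000-cell list than for the other 3. With lists of equal length the shares were 17.4%, 20.1% and 21.7% at 25000 cells, 9.70%, 15.1% and 15.1% at 50000, 10.3%, 18.9% and 18.1% at 75000, and 6.81%, 14.9% and 14.1% at 100000. With 1 library at each cell number, this difference has no replicate check. For the 25000-cell comparison with full lists, mean lowest scores were 10.8 at starts, 10.5 in genes and 10.4 between genes. At a lowest score of 8 or 9 the shares were 31.4% (28.1 to 34.8), 34.3% (32.3 to 36.4) and 35.3% (32.9 to 37.8). At 10 or 11 and at 12 to 14 starts were again lowest, with intervals that overlapped those of the other positions.

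**Figure D4:**
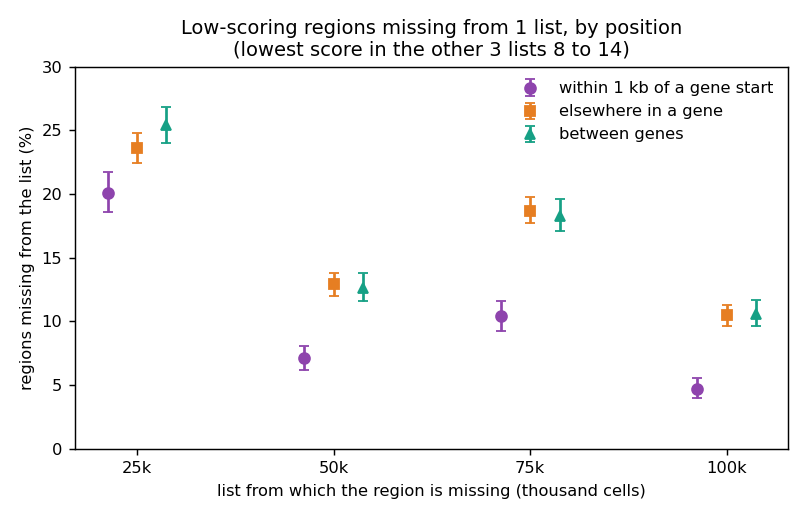
Share of low-scoring regions (lowest score 8 to 14 in the other 3 lists) missing from 1 list (y axis, %), by the list they are missing from (x axis) and by position: within 1 kb of a gene start, elsewhere in a gene or between genes; bars are exact Clopper-Pearson 95% intervals. Starts lie lowest in each list, at 20.1% for 25000 cells and at 4.71% for 100000 cells.

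A region of the set lay within 1 kb of a start or end of 623 protein-coding genes, or 2.84% of 21900. These are 5.86% of the 10636 genes with a region of all 3 larger lists there. Counting starts alone, or both ends where no start was given, 516 genes had such a region. Of these, 367 (71.1%) had no 25000-cell peak within 1 kb of a start. For the regions missing at 50000, 75000 and 100000 cells, the genes with no peak of the missing list were 59.7% of 186, 54.7% of 278 and 55% of 120. As the 25000-cell list holds the fewest peaks, list length may enter the higher share, and its part was not tested.

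Of 314 genes in 18 lists of pathways and cell types, 12 (3.82%) had a region of the set within 1 kb of a start or end, or 5.74% of the 209 list genes with a region of all 3 larger lists there. Both shares are near those over all protein-coding genes. Among 24 genes of MAPK and EGF receptor signalling there were 3, and the TGF-beta, Hippo, cell cycle and Wnt lists had 2 each. None was found at the genes for epithelial junctions and keratins, epithelial regulators, epithelial-mesenchymal transition, AP-1, chromatin regulators, housekeeping, luminal and basal mammary cells, or the 4 other cell types.

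Of these 12 genes, 5 had no 25000-cell peak at either end. Among them, Plk1, a mitotic kinase gene, scored 21, 17 and 28 at its start, at chr7:122158801-122159700. The Wnt co-receptor gene Lrp6 scored 16, 19 and 16 at an annotated end, and Tead2, which encodes a DNA-binding partner of YAP, 14, 10 and 16 at its start. Rb1, the retinoblastoma gene, scored 9, 8 and 15 at an end. Lrp6, Tead2 and Rb1 were below 20 in each list.

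At the other 7 genes a 25000-cell peak was listed within 1 kb of the start or end as well. Spry4 is described above. Mapk3, which encodes the kinase ERK1, scored 10, 15 and 19 and had a 25000-cell peak of 16. The ERK phosphatase gene Dusp6 scored 18, 11 and 11 and had one of 69. Smurf1, which encodes a ubiquitin ligase that acts on SMAD proteins and receptors, scored 14, 11 and 19 and had one of 14. Ltbp1, which encodes a protein that binds latent TGF-beta, scored 13, 11 and 8 and had one of 8. The Wnt receptor gene Fzd7 (11, 9 and 9) and Tead3 (8, 9 and 8) had 25000-cell peaks of 30 and 15. The regions at Dusp6, Fzd7 and Tead3 lay nearest the end of the gene rather than its start. For these 7 genes the missing region was not the only one listed within 1 kb of the gene's start or end. Apart from Spry4, the distance from the missing region to the 25000-cell peak is not given here. The peak can lie at the other end of the gene.

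The promoters in the set were rich in G+C but less so than those of all 4 lists. Taking 1 promoter per region, 346 regions of the set overlapped a RefSeq promoter, with a median G+C content of 59.3% (quartiles 52.3 and 67.2) and a median of 19 CpG sites in 300 bases. The medians were 62% and 22 for 7651 regions of all 4 lists and 52.7% and 7 over the 32851 promoters of the table. At a lowest score of up to 14, the G+C medians were 60% in 301 promoters of the set (order-statistic 95% interval 58 to 61) and 59.7% (59.3 to 60.3) in 1261 promoters of all 4 lists. Over all scores, the medians of the sets missing at 50000, 75000 and 100000 cells were 58%, 58% and 61.5%, beside the 59.3% of the set. Among promoters with a lowest score of 8 or 9 in the larger lists, 30.4% (24.7 to 36.5) of those below 61.3% G+C and 33.2% (26.5 to 40.3) of the others lacked a 25000-cell peak. At 10 to 14 the shares were 14.9% (12.2 to 17.9) and 14% (11.1 to 17.3), so the intervals overlapped in both score ranges and the order differed.

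Motif content was compared with low-scoring promoters of all 4 lists and with the whole table. The 346 promoters of the set were taken at every score, and 301 of them had a lowest score of up to 14. The low-scoring promoters of all 4 lists were the 1261 that met this cut, so scores were not fully matched. GC boxes were in 56.1% (50.7 to 61.4) of the set's promoters, in 61.6% (58.9 to 64.3) of low-scoring promoters of all 4 lists, in 70.2% of all promoters open in all 4 lists and in 35.7% of the whole table. The CCAAT box of NFY was in 28.9% (24.2 to 34.0), against 29.0%, 39.9% and 37.4%, and the ETS motif CCGGAAG in 16.8% (13.0 to 21.1), against 17%, 20.3% and 8.86%. TATAAA was in 11% (7.89 to 14.8), against 7.85% (6.43 to 9.48), 5.84% and 13.6%. The AP-1 motif TGANTCA was in 6.07% (3.80 to 9.13) of the set, against 6.11%, 5.63% and 7.81%. The TEAD motif GGAATG was in 12.4% (9.14 to 16.4) of the set, against 13.9%, 11.9% and 14.7%. The E-box CACGTG was in 8.09% (5.44 to 11.5), against 10.9% (9.20 to 12.7), 10.8% and 7.15%. The GATA factor motif (AGATAA) was in 7.51% (4.97 to 10.8), against 7.69%, 5.20% and 11.2%. For each of the motifs above the interval of the set overlapped that of low-scoring promoters of all 4 lists.

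Rarer motifs were each in under 5% of the set. KLF factors' CCACACCC was in 4.91%, against 3.56% of the table, the YY1 motif AAGATGGCG in 4.05%, against 1.40%, and the CTCF core CAGGGGGC in 4.05%, against 2.87%. The CRE TGACGTCA was in 3.76%, against 1.79%, NRF1's GCGCATGCG in 3.47%, against 1.75%, and the RUNX motif TGTGGTT in 3.47%, against 5.27%. In low-scoring promoters of all 4 lists the shares were 3.25% for KLF, 3.89% for YY1 and 4.60% for the CTCF core. They were 3.01% for CRE, 3.89% for NRF1 and 3.57% for RUNX there, and each of these values lay inside the interval of the set. Ronin's ACTACAATT was in 1 promoter of the set and 0.393% of the table, and the SMAD palindrome GTCTAGAC in 0 of 346, with an exact upper limit of 1.06%, and 0.213%. Both strands were searched, overlapping matches of different motifs were all counted, and a match is a run of letters, not a measured binding site. 

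The set was spread over the whole genome. It reached 1499 windows of 1 Mb, 728 of them with a single region, and neighbouring regions of the set were 402 kb apart in the median. Among regions with a peak in all 3 larger lists, the share missing at 25000 cells was 15.9% (12.9 to 19.3) on chromosome X, 14% (12.1 to 16.2) on chromosome 4 and 7.78% (6.40 to 9.35) on chromosome 19. The median lowest score was 14 on chromosomes X and 4 and 22 on chromosome 19. At lowest scores up to 14 the shares were 30.2% (24.8 to 36.1), 25.2% (21.7 to 28.9) and 21.7% (17.9 to 25.8). The shares missing only at 50000, 75000 and 100000 cells were 6.12%, 7.10% and 6.32% on chromosome X. On chromosome 4 they were 7.14%, 6.97% and 5.06%. Over the genome the shares missing only at 25000, 50000, 75000 and 100000 cells were 10.3%, 5.02%, 7.31% and 3.98%. On chromosome X, 84 regions were missing only at 25000 cells, against 29, 34 and 30 missing only at 50000, 75000 and 100000. On chromosome 4 the numbers were 159, 75, 73 and 52. Between 61 and 64 Mb of chromosome 15, around Myc and Pvt1, 13 of 151 regions (8.61%) belonged to the set.

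**Figure D5:**
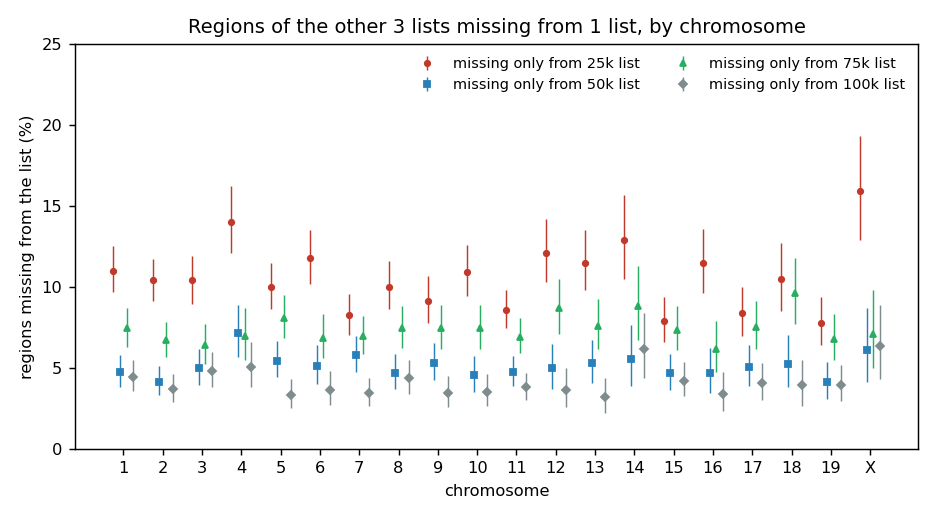
Share of regions with a peak in the other 3 lists that are missing from 1 list (y axis, %), by chromosome (x axis, autosomes and X) and missing list; bars are exact Clopper-Pearson 95% intervals. The 25000-cell share is highest on chromosome X, at 15.9%, and lowest on chromosome 19, at 7.78%.

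The 1 Mb windows with the most regions of the set held 9 each, on chromosomes 10 (80 to 81 Mb, 9.89% of 91 regions of the larger lists) and 12 (8 to 9 Mb, 24.3% of 37). On chromosome 12 they included 2 regions inside Sdc1, the syndecan-1 gene of epithelial cell surfaces, with scores of 13, 19 and 12 and of 9, 11 and 8. These lay 0.700 and 0.200 kb from a 25000-cell peak. Another at the start of Wdr35, a gene of cilium transport, scored 16, 17 and 18. On chromosome 10 they included the start of Lmnb2, the lamin B2 gene (11, 11 and 13), and a region inside Gng7, a G protein subunit gene (23, 10 and 20). Of the windows with 8, that on chromosome 3 from 122 to 123 Mb held 8 of 33, the strongest at chr3:122082151-122082800 inside the transporter gene Abca4, with scores of 23, 31 and 30. Most of the other regions in these windows scored below 20 in each list.

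Most regions of the set stood apart from the peaks of the 25000-cell list. The nearest such peak was within 1 kb for 325 regions (11%, 9.91 to 12.2), 1 to 10 kb away for 1132 (38.4%) and farther for 1494 (50.6%, 48.8 to 52.4). The median gap was 10.2 kb (order-statistic 95% interval 9.45 to 11.1). For regions missing at 50000, 75000 and 100000 cells, the median gap to the list that lacked them was 8.70, 7.33 and 7.28 kb. The 25000-cell list holds the fewest peaks, and the part of this in the longer gap was not tested. Regions of all 4 lists lay 8.50 kb from the next 25000-cell peak in the median.

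Strong regions were missing from each of the other lists too. Missing only at 50000 cells, a region at chr17:16342651-16343250 inside the predicted gene Gm41534 scored 24, 23 and 30 in the 25000-, 75000- and 100000-cell lists. Missing only at 75000, one at the start of the gene Oga, at chr19:45782501-45783100, scored 28, 26 and 29 in the other lists and lay 0.150 kb from a 75000-cell peak. Missing only at 100000, one inside the methionine aminopeptidase gene Metap2 at chr10:93889501-93890100 scored 30, 26 and 30, and the nearest 100000-cell peak was 43.8 kb away.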

How the data were processed

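The 4 ATAC-seq libraries of NMuMG cells, 1 per cell number, were used. The authors deposited 1 peak list per library, with a whole-number score per peak whose formula is not given in the sources used here. Per the submitters' processing notes, cutadapt, Bowtie 0.12.8, SAMtools, Picard 1.107, bedtools 2.17.0 and the build mm10 were used. The peak caller's settings, any shift of reads for Tn5 and any thinning to a common depth are not given there. No depth is given.

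Lists were merged at 1 bp of overlap with Python 3.11.15, pandas 2.3.3, numpy 2.4.6 and scipy 1.17.1. A region's score in a list is its highest peak there. Overlap, gap and position functions were tested on simulated data. Shares have exact Clopper-Pearson intervals.

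Genes came from RefSeq GRCm38.p6. Starts were those of the promoter table, for 27025 genes, 17492 of 21900 protein-coding; both ends stood in for other genes. All 314 list genes matched by symbol. Promoter sequences of genes on chromosomes 8 and 18 are not shown, and the values of 1 list gene are not reported here. Figures were drawn with matplotlib 3.10.9.

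Named regions were the 10 highest by lowest score, overall and at protein-coding genes, the 3 widest, those at list genes, the 3 fullest 1 Mb windows and the 2 highest of each other missing set. Members and lists were chosen with earlier results of these data known. Alternatives were equal list lengths, stricter scores, other overlaps, windows and gene sets, autosomes only, chromosome 15 without 61 to 64 Mb, and leaving out each larger list. The use of both ends of all genes, of table starts alone, and of loss shares and ratios by position at equal list length were added after seeing the data.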

Additional observations from a re-analysis of the deposited data

How the results depend on the processing

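Of 60 alternative values for the regions missing only at 25000 cells, 32 stayed within the interval, or for counts within 1.5 times the value, reported. In all 9 settings that give 4 counts, the reported one included, more regions were missing only at 25000 cells than only at any other cell number. Keeping only scores above each list's median in the larger lists left 125 regions, against 27, 43 and 19 missing at 50000, 75000 and 100000. Leaving out the 50000- or 75000-cell list, which asks for 1 peak fewer, gave 4543 and 5079. With scores of 12 or above in every list the median lowest score was 14, and above the list medians 18, both by construction. The median width was 650 bp and 700 bp in these settings, 275 bp with peaks resized to 200 bp, and 550 bp with a reciprocal overlap of 50% or when the 50000-, 75000- or 100000-cell list was left out.

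The share at gene starts was 30.5% with scores of 12 or above, 36% above the list medians, 23.8% with resized peaks, 25.9% with reciprocal overlap, and 18.3% when a 25000-cell peak within 500 bp counted as present. It was 16.7% and 17.4% without the 75000- and 100000-cell lists, 15.7% and 38.9% with windows of 500 bp and 5 kb, 15.0% with protein-coding genes only and 14.1% with the starts of the promoter table alone. The share within 1 kb of a 25000-cell peak was 8.56% with scores of 12 or above, 21.6% above the list medians, 17.9% with resized peaks, 25.9% with reciprocal overlap and 4.89% with the 500 bp rule. The cause of these shifts was not tested where the setting does not fix it. No paired analysis was possible because each cell number has 1 library. Unknown depth limits every count of absent peaks.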

Other observations

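Regions more than 100 kb from any 25000-cell peak lay more often between genes and less often at starts than those within 1 kb. Of the 204 regions of the set more than 100 kb from such a peak, 53.4% (46.3 to 60.4) lay between genes and 12.7% (8.50 to 18.1) at gene starts, compared with 27.1% (22.3 to 32.3) and 35.1% (29.9 to 40.5) of the 325 within 1 kb. At 1 to 10 kb and at 10 to 100 kb, 17.8% and 18.7% lay at starts, and 32.5% and 35.4% between genes. The other missing sets were not split by distance in this way. The median score in the 100000-cell list was 12 for the regions more than 100 kb away, against 13 for those within 1 kb. The highest-ranked of the far regions, chosen after their values were seen, were at chr2:15906151-15906850 inside Malrd1, with scores of 29, 21 and 28 and the nearest 25000-cell peak 161 kb away, and at chr13:25639751-25640500, 370 kb from Nrsn1, with 19, 24 and 21 and a gap of 318 kb.

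Of the 325 regions within 1 kb, 17 touched a 25000-cell peak without overlapping it. The highest, at chr8:126735401-126736300, scored 25, 21 and 26, and the 25000-cell peak beside it scored 28. Another at the start of the non-coding gene Gm13986, 1.32 kb from Thbs1, scored 15, 15 and 21 beside a peak of 23.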
